A study of Mus musculus with 4 samples.

Results

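The genes described here are the innate pattern recognition and inflammasome genes of mouse lung: the Toll-like receptors (TLRs) with their co-receptors, adaptors and kinases, and the cytosolic sensors with the adaptor and caspases of the inflammasome. A list of 34 gene symbols was matched to array features that the platform annotation pairs with exactly 1 symbol, and the feature with the highest mean was taken for each gene. This gave 32 genes of 30142 in all. The feature of Irak1 also carries microRNA symbols, and Irak4 was not found under a single symbol, so neither kinase was analysed here. Of the 32 genes, 31 lay above an expression floor, set at the 40th percentile of log2 signals averaged over the pools (5.82), as did 18084 of all genes. Only Tlr12, a receptor for microbial profilin, lay under it, with signals of 41.7 to 47.9 in the 4 pools, and it was not tested.

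Male C57BL mice, an inbred laboratory strain, breathed either clean air or mainstream cigarette smoke from 10 weeks of age. Sessions took 1 h on 5 days of each week. The groups were clean air for 2 weeks (5 mice, aged 12 weeks at the end), smoke for 2 weeks (5 mice, 12 weeks), clean air for 4 weeks (5 mice, 14 weeks) and smoke for 4 weeks (4 mice, 14 weeks). Lung RNA of each group was mixed and hybridised to 1 array, so each group is 1 pool with no replicate, and the spread between mice is not visible. All groups are C57BL mice, and no allele and no agent beside smoke is named for any of them.

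TLRs are membrane receptors that recognise conserved microbial molecules. Those on the cell surface bind lipids and proteins such as lipopolysaccharide, lipopeptides and flagellin, and those in endosomes bind nucleic acids or, in the mouse, profilin. Most TLRs signal through the adaptor MyD88 and the IRAK kinases, and TLR3 and endocytosed TLR4 through TRIF, the product of Ticam1, towards NF-kB and interferon regulatory factors. In the cytosol, NLR proteins and AIM2 assemble inflammasomes, which activate caspase-1, which in turn matures interleukin 1 beta and interleukin 18. In the lung these genes are known mainly from alveolar macrophages, monocytes, dendritic cells, neutrophils and B cells, and some, such as Tlr3 and Tlr5, also from epithelium.

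The array signals are the deposited values on a linear scale, and differences are log2 smoke minus log2 clean air. Array medians were 58.8 to 61.7. A difference between 2 pools is given as a value without a p-value. The smoke effect over both durations, written with its standard error (SE), was tested with limma with smoke and duration as terms over 2 smoke and 2 clean-air pools, and "rose" is used only where the Benjamini-Hochberg adjusted p over all 18084 genes was under 0.05. This test sets the mean smoke difference against a variance drawn from 2 sources. How far the difference of the gene itself changed between the durations gives 1 degree of freedom. A variance shared over all genes gives 5.38, so the SE rests mostly on the shared part. Neither source measures the spread between mice. All 7 measured lung epithelial markers lay above the floor, among them the surfactant gene Sftpc at log2 signals of 18.85 to 18.97.

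Across the 31 genes, signals were mostly higher in the smoke pools, by modest amounts. The co-receptor gene Cd14 (2.06-fold), the endosomal receptor gene Tlr7 (1.90-fold) and Ly86, which encodes a partner of CD180 (1.60-fold), rose. Those 3 of 31 genes stand beside 1.15% of all genes that rose, while none of the 31 and 0.315% of all genes fell. The members were chosen with earlier results of these data known, so the shares set beside them are descriptive. The median smoke effect of the 31 genes was 0.24, and that of all genes above the floor was 0.00. The effect was above 0 in 27 of the 31 genes. With limma, 15 genes had an unadjusted p under 0.05 and a positive effect, beside 6.46% of all genes, and 1, Ticam1, a negative one, beside 5.16%. After cyclic loess, a scaling that aligns the arrays along the signal range, the adjusted p was 0.0511 for Cd14, 0.0553 for Tlr7 and 0.0859 for Ly86. Without any 1 of the 4 pools, limma fits lack duration, and either smoke or clean air is left with 1 pool. Nearly all calls over all genes were then lost, those of the 31 genes included. The effects in these fits ran from 0.77 to 1.32 for Cd14, from 0.87 to 0.99 for Tlr7 and from 0.59 to 0.77 for Ly86. With all 4 pools, 78.5% of the calls over all genes were rises, against 59.3% after median centring and 97.2% after cyclic loess. Among the members, 7 rose after median centring and 0 after cyclic loess, where 17 had an unadjusted p under 0.05, beside 12.1% of all genes. The effects themselves moved little: that of Cd14 was 1.02 after median centring and 1.05 after cyclic loess. After median centring the SE was 0.154 for Cd14, Tlr7 and Ly86 alike, so that fit gave these genes 1 shared variance. The counts of calls thus also follow how the variance was estimated. When only protein-coding genes were fitted, 12 of the 31 rose, beside 4.49% of the 12581 genes fitted.

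**Figure D1:**
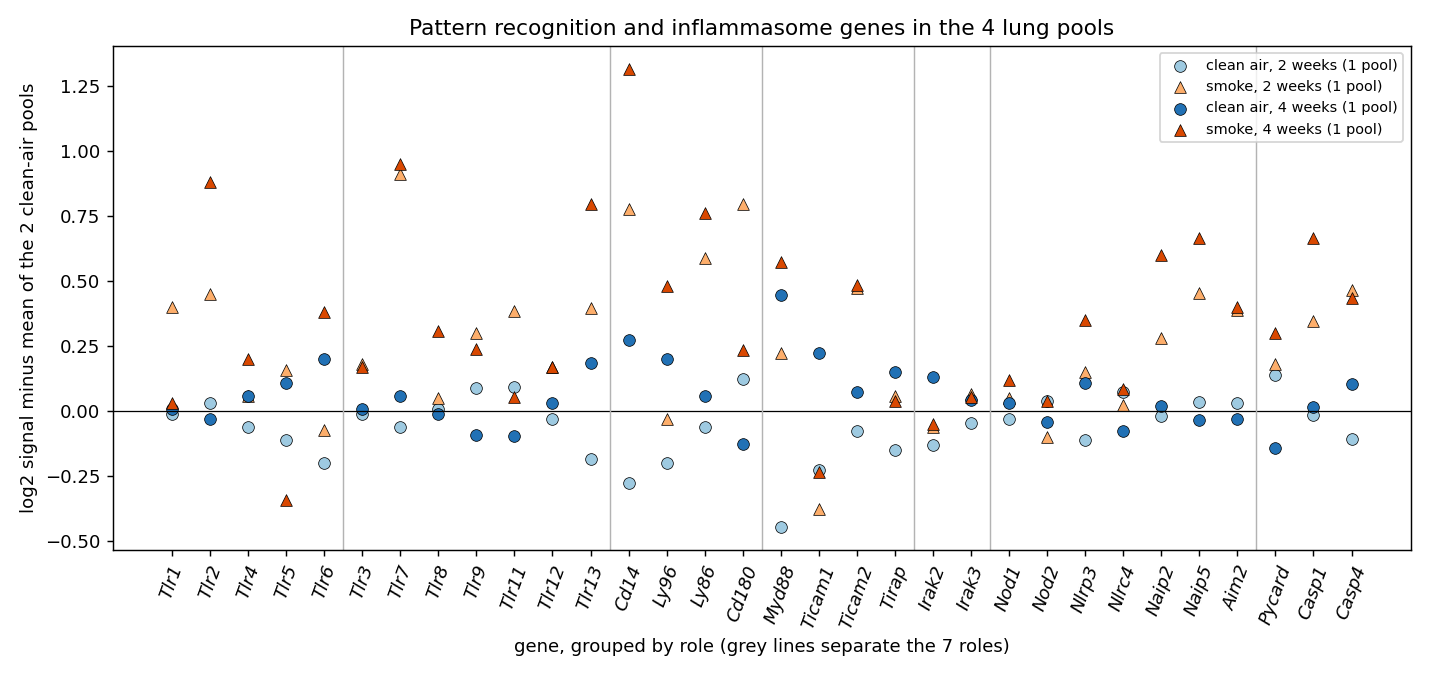
Log2 signal of each of the 32 measured genes in each of the 4 pools, minus the mean of the 2 clean-air pools of that gene. Circles are clean-air pools and triangles smoke pools, 1 pool each; for Cd14, Tlr7, Ly86 and Tlr2 both triangles lie above both circles, while for Myd88 the 4-week clean-air circle lies above the 2-week smoke triangle.

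Both smoke pools lay above both clean-air pools in 20 of the 31 genes, beside 15.7% of all genes above the floor and 17.1% of the protein-coding ones. Both smoke pools lay below in 1 of the 31, Ticam1, beside 16.8% of all genes. This order does not depend on the size of the differences, and with 2 pools against 2 an exact permutation test of a single gene cannot give a two-sided p under 0.333. After 2 weeks 5 of the 31 genes were at least 1.5-fold higher in smoke (Cd14, Tlr7, Cd180, Myd88 and Ly86), beside 1.82% of all genes, and 0 were as much lower, beside 1.22%. After 4 weeks 7 were at least 1.5-fold higher (Cd14, Tlr2, Tlr7, Ly86, Naip5, Casp1 and Tlr13), beside 2.53% of all genes, and 0 were as much lower, beside 1.5%. The medians of the 31 genes were 0.27 at 2 weeks and 0.28 at 4 weeks, and those of all genes 0.01 and -0.02. Just inside the 1.5-fold line were Tlr13 at 4 weeks (1.52-fold), Casp1 at 4 weeks and Ly86 at 2 weeks (both 1.57-fold). Just outside it were Tlr13 at 2 weeks and Naip2 at 4 weeks (both 1.49-fold) and Casp4 at 2 weeks (1.48-fold).

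The 2 clean-air pools differ in age and in weeks of handling, and they give a view of how far pools can differ without smoke. At 4 weeks 1 of the 31 genes, Myd88, stood at least 1.5-fold above the 2-week clean-air pool, beside 1.85% of all genes, and 0 were as much lower, beside 2.25%. The median difference between these pools was 0.09 over the 31 genes and 0.01 over all genes. In 21 of the 31 genes the 4-week clean-air pool was the higher one.

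**Figure D2:**
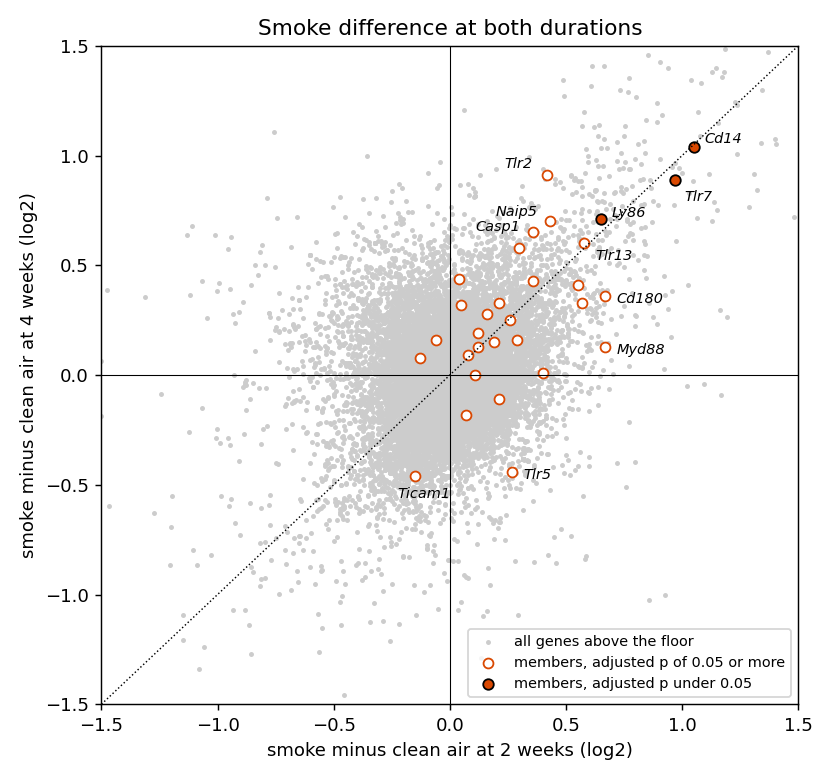
Smoke minus clean air at 2 weeks (horizontal, log2) against 4 weeks (vertical, log2), 1 pool against 1 pool on each axis; grey points are all 18084 genes above the floor, those outside the axes left off, and circles the 31 tested members. Cd14, Tlr7 and Ly86 (filled) lie near the dotted line of equal differences, Tlr2 above it and Myd88 and Tlr5 below it.

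The co-receptors held 2 of the 3 genes that rose. Cd14, which hands lipopolysaccharide to the TLR4 complex, had signals of 191 and 280.4 in the 2-week and 4-week clean-air pools and of 395 and 576 in the matching smoke pools. The lowest smoke pool thus lay above the highest clean-air pool, although the clean-air pools themselves differed 1.47-fold. Cd14 rose by 1.04 ± 0.10 (SE; adjusted p = 0.00854), with nearly equal differences of 1.05 at 2 weeks and 1.04 at 4 weeks. Ly86, whose product MD-1 holds the receptor CD180 at the surface, had signals of 1215 and 1322 in clean air and of 1912 and 2155 in smoke. The groups did not overlap, and the clean-air pools differed by 1.09-fold. Ly86 rose by 0.68 ± 0.101 (adjusted p = 0.0348), with 0.65 and 0.71 at 2 and 4 weeks.

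Cd180 itself, a TLR-like receptor best known from B cells, had signals of 598 and 502 in clean air and of 950.4 and 643 in smoke. Both smoke pools were higher, and the 4-week one by less (0.36, against 0.67 at 2 weeks). Its effect of 0.51 ± 0.118 did not pass (adjusted p = 0.136). Ly96, which encodes MD-2, the lipopolysaccharide-binding partner of TLR4, had signals of 4167 and 5475 in clean air and of 4669 and 6661 in smoke. Here the groups overlapped, as the 4-week clean-air pool lay above the 2-week smoke pool, and the effect was 0.22 ± 0.103 (adjusted p = 0.49).

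**Figure D3:**
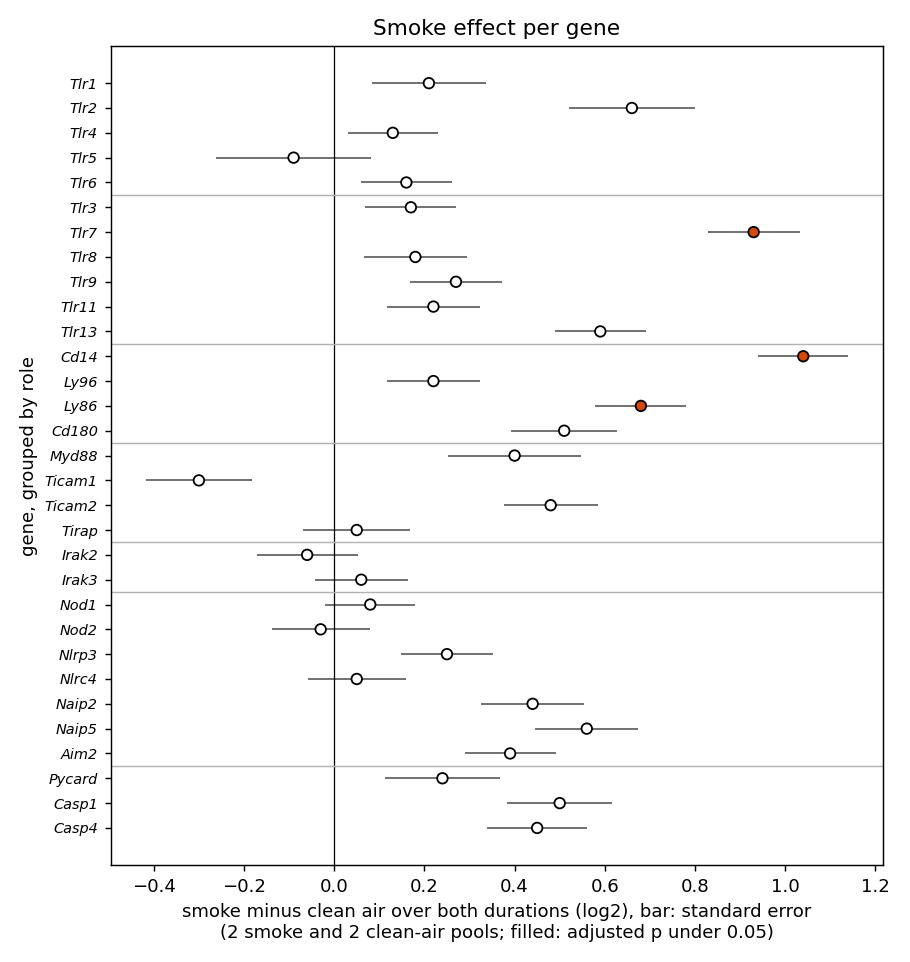
Smoke effect over both durations (log2, horizontal) for the 31 tested genes, with bars of 1 standard error from limma over 2 smoke and 2 clean-air pools, grouped by role with grey lines between roles. The filled points, Tlr7, Cd14 and Ly86, are those with an adjusted p under 0.05, and the effects run from -0.30 (Ticam1) to 1.04 (Cd14).

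Among the surface receptors, Tlr2 differed most. TLR2 recognises lipopeptides together with TLR1 or TLR6, and its gene had signals of 530 and 509 in clean air and of 707 and 957 in smoke. Both smoke pools were the higher ones, and the difference was 0.42 at 2 weeks and 0.91 at 4 weeks, or 1.33-fold and 1.88-fold. The mean of 0.66 ± 0.140 did not pass (adjusted p = 0.11), and whether the differences at the durations are unequal was not tested. The partner genes stood lower: Tlr1 was at 0.40 and 0.01, and Tlr6 at 0.12 and 0.19, with an adjusted p of 0.648 and 0.678.

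Tlr4, the lipopolysaccharide receptor gene, had signals of 1117 and 1221 in clean air and of 1217 and 1341 in smoke. The 2-week smoke pool and the 4-week clean-air pool were thus nearly alike. Its effect of 0.13 ± 0.10 did not pass (adjusted p = 0.744), against 1.04 for Cd14 in the same pools; the difference between these genes was not tested. Tlr5, the flagellin receptor gene, was the surface receptor whose smoke pools fell on opposite sides, at 0.27 at 2 weeks and -0.44 at 4 weeks, with a mean of -0.09 ± 0.172 (adjusted p = 0.927).

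Among the endosomal receptors, Tlr7, a receptor for single-stranded RNA, had the largest difference. It had signals of 379 and 413 in clean air and of 742 and 765 in smoke. The smoke pools lay close together and the clean-air pools differed by 1.09-fold. Tlr7 rose by 0.93 ± 0.102 (adjusted p = 0.0143), with 0.97 at 2 weeks and 0.89 at 4 weeks. Tlr8, its X-linked relative, was at 0.05 and 0.32 (adjusted p = 0.655).

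Tlr13, which senses bacterial ribosomal RNA in the mouse, had signals of 122 and 158 in clean air and of 182 and 240.3 in smoke. The groups did not overlap, and the differences were alike, at 0.58 and 0.60. Its effect of 0.59 ± 0.101 lay just outside the threshold (adjusted p = 0.0542). The double-stranded RNA receptor gene Tlr3, the CpG DNA receptor gene Tlr9 and Tlr11, which senses profilin, had effects of 0.17, 0.27 and 0.22, with adjusted p-values of 0.627, 0.379 and 0.495. The groups did not overlap for Tlr3 and Tlr9.

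Adaptors and kinases differed in no common direction. Myd88, the adaptor of nearly all TLRs, had signals of 545 and 1012 in clean air and of 865 and 1106 in smoke. Its 2-week difference of 0.67 was smaller than the 0.89 between the clean-air pools, its 4-week difference was 0.13, and the mean of 0.40 ± 0.147 did not pass (adjusted p = 0.362). Without the 2-week clean-air pool its effect was -0.05. Ticam2, which links TLR4 to TRIF, was at 0.55 and 0.41 with no overlap between the groups (0.48 ± 0.104, adjusted p = 0.12). Ticam1, the TRIF gene, went the other way, at -0.15 and -0.46, with signals of 138 and 189 in clean air and of 125 and 137 in smoke. Its effect of -0.30 ± 0.118 did not pass (adjusted p = 0.387), and the lower clean-air pool lay only just above the higher smoke pool. Tirap, which brings MyD88 to TLR2 and TLR4, and the kinase gene Irak2 were higher in smoke at 2 weeks and lower at 4 weeks. Irak3, which encodes the inhibitory kinase IRAK-M, had an effect of 0.06 ± 0.103 (adjusted p = 0.922).

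Of the cytosolic sensors and the inflammasome core none passed, while 8 of these 10 genes had both smoke pools above both clean-air pools, beside the 15.7% of all genes. Nlrp3, a sensor of cell damage, had signals of 85.5 and 99.5 in clean air and of 103 and 118 in smoke. Its differences were alike, at 0.26 and 0.25, and about as large as the 0.22 between the clean-air pools (0.25 ± 0.101, adjusted p = 0.397). Pycard, the adaptor ASC that joins sensors to caspase-1, had signals of 105 and 87.0 in clean air and of 108 and 118 in smoke. The smoke pools lay above, but at 2 weeks by 0.04 only (0.24 ± 0.128, adjusted p = 0.573). Casp1, the inflammasome protease, had signals of 453 and 462 in clean air and of 580 and 725 in smoke, which put both smoke pools clearly above. Its differences were 0.36 and 0.65, and the effect of 0.50 ± 0.116 did not pass (adjusted p = 0.137). Casp4, which encodes the mouse caspase-11 that binds cytosolic lipopolysaccharide, was at 0.57 and 0.33 (0.45 ± 0.111, adjusted p = 0.164).

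The NAIP genes encode receptors that pass bacterial flagellin or secretion system proteins on to NLRC4. Naip5 had signals of 270.4 and 257 in clean air and of 363 and 418 in smoke. The groups did not overlap, and the effect was 0.56 ± 0.114 (adjusted p = 0.0954). Naip2 was at 0.30 and 0.58 (0.44 ± 0.114, adjusted p = 0.183), and its relative Naip6, which is no member, rose by 0.74 ± 0.102 (adjusted p = 0.029). The NAIP genes are similar in sequence, so their features may share signal, and the values are uncertain to that extent. Nlrc4 itself was at -0.06 and 0.16 (adjusted p = 0.938). Aim2, a DNA sensor, was at 0.36 and 0.43 with clean-air pools within 0.06 of each other (0.39 ± 0.101, adjusted p = 0.181). The peptidoglycan sensor genes Nod1 and Nod2 had effects of 0.08 ± 0.10 and -0.03 ± 0.109.

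To show the regulatory sequence in front of such genes, promoter windows from 250 bases before to 50 bases after the gene start were taken from RefSeq (GRCm38.p6), which listed 35 windows for 27 of the measured genes. Cd14 and Tlr7 are not among these 27, so the search covers 1 of the 3 genes that rose. They were searched on both strands for the PU.1 core GAGGAAGT, the AP-1 site TGANTCA, the interferon element core GAAANNGAA and the NF-kB consensus. The NF-kB consensus was found in 17.1% of the 35 windows and in 8.46% of the 32851 promoter windows of the same length in the table. The shares were 14.3% and 3.2% for PU.1, 20% and 8.56% for the interferon element, and 2.86% and 7.81% for AP-1. Some genes have more than 1 window. Casp4 has 2 overlapping windows that are both counted for NF-kB, whose matches fall in 5 of the 27 genes. A match is only a match of letters. The window of Ly86 is shown as that of a gene that rose. Those of Tlr2, Myd88 and Naip5 are shown because the genes differed at least 1.5-fold at 1 duration and their windows hold a match, a choice made after the values were seen. The windows of Tlr13, Cd180 and Casp1 held no match of these letters. They lie at chr13:37345095-37345394 on the plus strand (Ly86), chr3:83841559-83841858 on the minus strand (Tlr2), chr9:119339969-119340268 on the minus strand (Myd88) and chr13:100247287-100247586 on the minus strand (Naip5). Capitals mark the matches. Ly86 and Myd88 have the interferon element, which begins at the gene start in Ly86 and 40 bases before it in Myd88. Tlr2 and Naip5 have the NF-kB consensus, in Tlr2 as 3 matches beginning 173, 172 and 8 bases before the start, the first 2 of which overlap, and in Naip5 as 1 match beginning 218 bases before it. No match of one motif overlapped one of another motif in these windows.
Ly86: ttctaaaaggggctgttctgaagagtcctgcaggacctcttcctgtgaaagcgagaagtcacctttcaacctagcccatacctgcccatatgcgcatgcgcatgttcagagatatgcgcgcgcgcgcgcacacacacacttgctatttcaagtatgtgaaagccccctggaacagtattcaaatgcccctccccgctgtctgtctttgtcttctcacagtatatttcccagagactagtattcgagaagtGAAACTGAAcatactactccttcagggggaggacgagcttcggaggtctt
Tlr2: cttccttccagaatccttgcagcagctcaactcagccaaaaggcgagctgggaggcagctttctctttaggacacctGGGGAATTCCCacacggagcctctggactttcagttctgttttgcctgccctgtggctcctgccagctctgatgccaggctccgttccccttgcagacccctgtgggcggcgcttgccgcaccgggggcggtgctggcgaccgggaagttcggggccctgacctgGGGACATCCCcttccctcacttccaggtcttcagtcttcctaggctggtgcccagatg
Myd88: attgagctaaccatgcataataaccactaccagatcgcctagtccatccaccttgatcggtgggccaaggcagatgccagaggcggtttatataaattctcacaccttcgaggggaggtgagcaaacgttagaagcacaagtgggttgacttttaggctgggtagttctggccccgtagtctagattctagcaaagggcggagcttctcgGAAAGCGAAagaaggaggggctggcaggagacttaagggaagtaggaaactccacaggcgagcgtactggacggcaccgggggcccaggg
Naip5: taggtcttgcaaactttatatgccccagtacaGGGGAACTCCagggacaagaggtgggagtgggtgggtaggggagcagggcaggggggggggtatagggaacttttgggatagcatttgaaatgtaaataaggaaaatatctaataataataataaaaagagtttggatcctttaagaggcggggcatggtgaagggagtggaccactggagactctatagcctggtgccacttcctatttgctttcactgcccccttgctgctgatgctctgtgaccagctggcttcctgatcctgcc

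Other genes of these pathways were taken from 7 lists of 93 symbols that hold no member. Of 70 genes above the floor, 11 rose, 0 fell and 59 did not pass, beside 1.15% of all genes that rose and 0.315% that fell. These lists were chosen with earlier results of these data known, so the shares set beside them are descriptive. Most rises stood in the list of other soluble and surface pattern receptors, where 6 of 9 rose. One of the 6, Trem2, passed the floor only through its smoke pools (log2 signals of 6.13 and 6.65, against 5.49 and 5.56 in clean air), so it entered the test through the group in which it is high. No member had both clean-air pools under the floor. The others included the scavenger receptor Msr1 (1.70 ± 0.124, adjusted p = 0.00318), the beta-glucan receptor Clec7a (1.65 ± 0.140, adjusted p = 0.00601), the signalling adaptor Tyrobp (1.25 ± 0.112, adjusted p = 0.0069) and the collectin Sftpd (1.03 ± 0.144, adjusted p = 0.0303). The list's median effect was 1.03. After cyclic loess only 2 of the 11 calls of the 7 lists, Msr1 and Il1rn, were made.

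In the lists of TLR partners, downstream signalling, negative regulators, nucleic acid sensors and other NLR genes, 3 of 51 genes rose (5.88%), beside 1.15% of all genes. The fit of protein-coding genes alone called 23 genes over all 7 lists, 21 of them higher and 2 lower in smoke. Of all 12581 genes it called 882, 565 of them higher and 317 lower. Of 9 TLR partners and trafficking genes 0 passed with limma (5 at an unadjusted p under 0.05), with a median effect of 0.29. Of 17 downstream signalling genes, such as kinases and NF-kB subunits, 0 passed with limma (4 unadjusted), with a median effect of -0.01. The negative regulators had 1 of 10 that rose, Tnip3, an inhibitor of NF-kB signalling (0.66 ± 0.102, adjusted p = 0.0399), and a median of 0.00. Of 8 cytosolic nucleic acid sensors 1 rose, Sting1, the adaptor of the cGAS pathway (0.62 ± 0.103, adjusted p = 0.0499), whose clean-air pools differed by as much (0.61). Among 7 genes of NOD signalling and other NLR proteins, Naip6 was the 1 that rose.

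Inflammasome partners, effectors and products were divided. Il1rn, the interleukin 1 receptor antagonist, rose by 1.32 ± 0.101 (adjusted p = 0.00387), and Il1a, the interleukin 1 alpha gene, by 1.36 ± 0.196 (adjusted p = 0.0321), with 0.94 at 2 weeks and 1.79 at 4 weeks. The other 8 of 10 did not pass. Il1b and Il18, the substrates of caspase-1, and Gsdmd are named here after their values were seen. Il1b had log2 signals of 8.69 and 9.53 in clean air and of 8.44 and 8.32 in smoke. Both smoke pools were thus below both clean-air pools, as in 16.8% of all genes, opposite in direction to Casp1. The 2-week difference of -0.26 was smaller in size than the 0.84 between the clean-air pools, and the 4-week difference was -1.21. The Il1b effect of -0.73 ± 0.214 did not pass (adjusted p = 0.234). Il18 was at 0.20 ± 0.101 (adjusted p = 0.54) and the pore-forming effector gene Gsdmd at 0.07 ± 0.105 (adjusted p = 0.889).

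**Figure D4:**
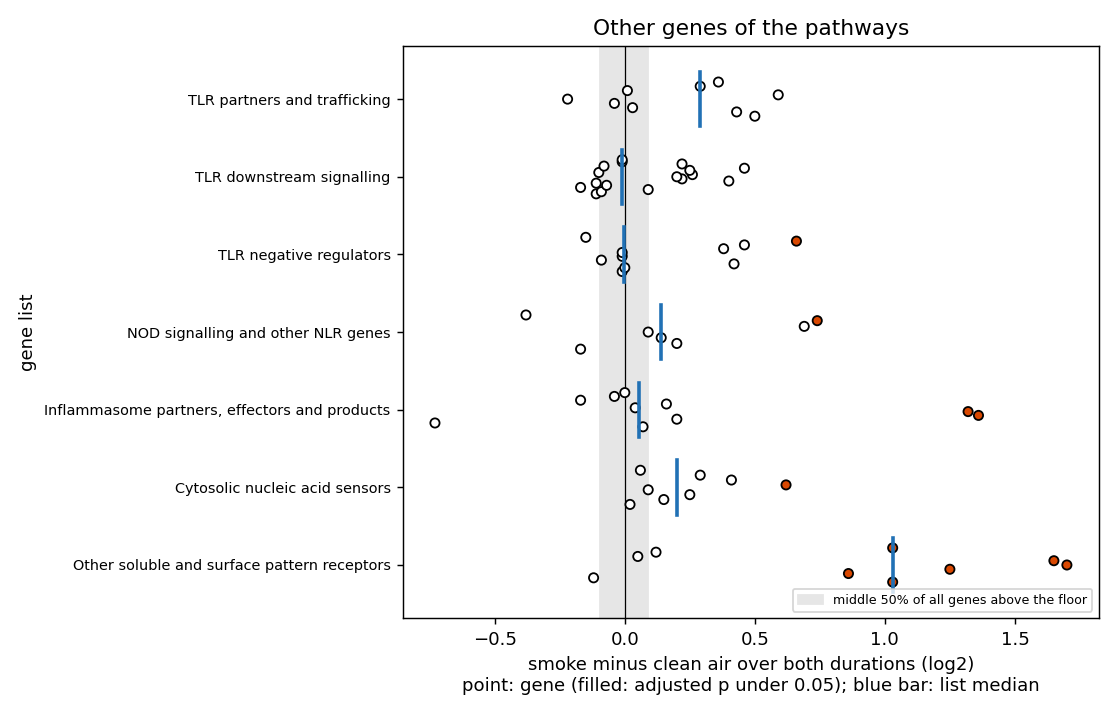
Smoke effect over both durations (log2, horizontal) of each gene above the floor in the 7 pathway lists, which hold no member; filled points have an adjusted p under 0.05, blue bars are list medians and the grey band holds the middle 50% of all genes. The other pattern receptors have a median of 1.03, while downstream signalling genes and negative regulators centre on -0.01 and 0.00.

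Markers of cells that carry these receptors also differed between the pools. In whole lung, more cells of a type and more RNA per cell cannot be told apart. Of 8 alveolar macrophage markers above the floor, 5 rose and 1, Fabp1, fell, and their summed signal was 13437 and 14822 in the clean-air pools and 34051 and 50733 in the smoke pools. Of 9 monocyte and interstitial macrophage markers 3 rose, with sums of 50932 and 89450 in clean air and of 61411 and 79059 in smoke. Ly6c2 alone made up 91.8% of these sums, and without it the other 8 summed to 4103 and 5097 in clean air and to 5801 and 8165 in smoke. The macrophage gene Cd68 rose 4.84-fold and Marco 6.48-fold, against 2.06-fold for Cd14. These 2 had the largest effects of the alveolar macrophage list. The identity markers Siglecf (-0.13 at 2 weeks and 0.13 at 4 weeks) and Krt79 (-0.35 and -0.28) did not pass. Of 6 neutrophil markers above the floor 1 rose, and the sum of all 10 measured was highest in the 4-week clean-air pool, at 4525, against 2026 to 2493 in the other pools. The granule genes Ngp, Camp, Mpo and Elane lay under the floor. Of 7 dendritic cell, 7 B cell and 7 T and NK cell markers 0 passed with limma, and 2, 1 and 3 had an unadjusted p under 0.05. For the markers of B cells, 1 of the cell types that carry Cd180 and Tlr9, the median effect was -0.10. Single effects of these markers ran from -0.32 to 0.62. The part of these cells in the differences of the receptor genes was not tested.

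**Figure D5:**
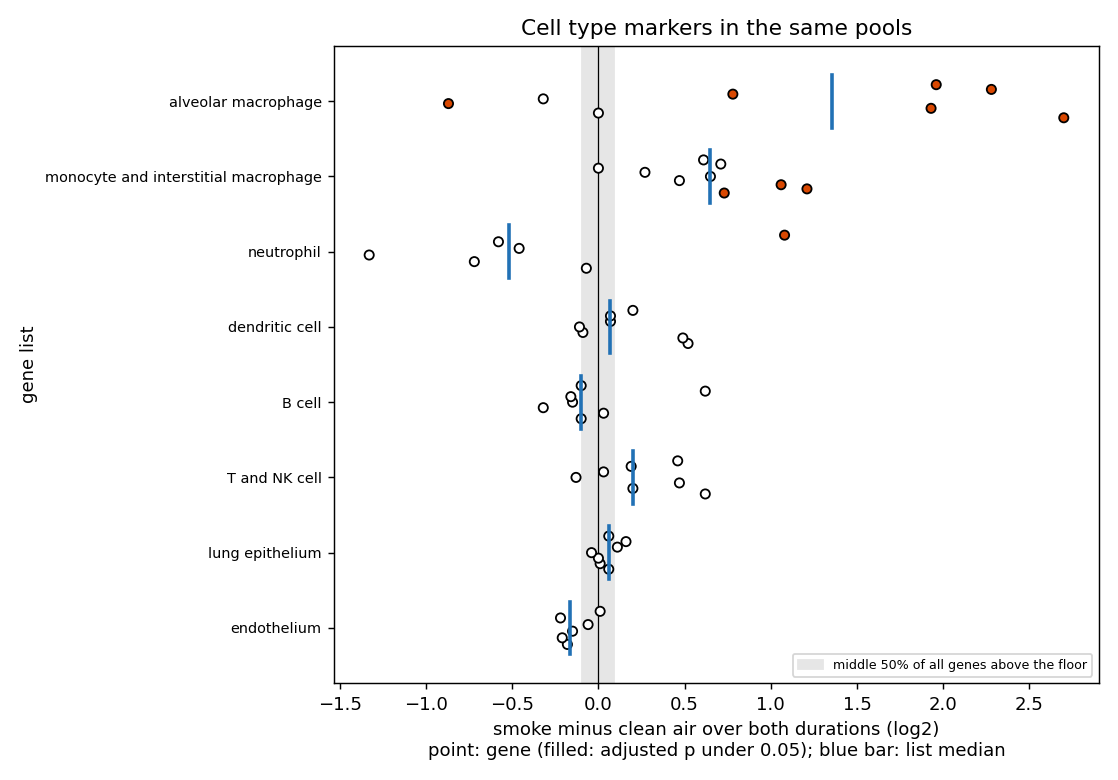
Smoke effect over both durations (log2, horizontal) of each marker above the floor in the 8 cell type lists, with filled points for an adjusted p under 0.05, blue bars for list medians and a grey band for the middle 50% of all genes. Alveolar macrophage markers have a median of 1.36 and monocyte and interstitial macrophage markers of 0.65, while lung epithelial markers stay near 0 (0.06). Endothelial markers have a median of -0.16. None of these 6 passed, and in 4 both smoke pools lay below both clean-air pools, beside 16.8% of all genes.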

How the data were processed

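RNA of pooled lungs was measured on 4 arrays, 1 per group, grouped by sample title. Per the submitters' processing notes, the authors made the deposited intensity values with RMA in Affymetrix Expression Console 1.4.1; the sources used here name no genome build and no filter. RMA aligns the distributions of the arrays, so a shift shared by all genes would be removed. The deposited intensities ran from 4.93 to 845602 on a linear scale. Their log2 was a number of 6 decimals in 100% of values (tolerance 0.05 of the last decimal), against 9.93% for the natural log, so the linear values were made with base 2. Between 541 and 581 features per array exceeded 65535, the top of a 16-bit scan, so the signal had been scaled in a way the sources do not describe, and folds hold on the deposited scale only.

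Of 65956 features, 30604 had 1 gene symbol, 2146 several, and 33206 were not listed; Entrez IDs of 22818 features matched RefSeq (GRCm38.p6) and 827 symbols were updated. The 30142 genes were reduced to 18084 above the floor. Smoke effects were fitted on log2 values with limma 3.58.1 in R 4.3.3 (lmFit, eBayes), with terms for smoke and duration, 1 residual degree of freedom and 5.38 prior degrees of freedom. The Benjamini-Hochberg adjustment ran over all genes tested. The fit was first tested on simulated data. The array number limits the precision of every value.

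The members and lists were chosen with earlier results of these data known. Values in every pool are printed for members that passed or differed at least 1.5-fold at either duration and for Tlr4, Tlr2, Myd88, Nlrp3, Pycard and Casp1, and, chosen after their values were seen, for Ly96 and Ticam1; of each pathway list, at most the 4 genes with the largest effects among those that passed are named. Alternatives were median centring, cyclic loess, no floor, a floor at the 60th percentile, the natural log, the mean of all features, protein-coding genes only, no duration term, an intensity trend, a 2-fold threshold and leaving out each pool. Centring and loess over all features were chosen after seeing the data. Planned protein comparisons were not made. The table held 0 columns of other samples.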

Additional observations from a re-analysis of the deposited data

Results flagged for a closer look

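In 5 of the 31 tested genes the smoke pool lay above its clean-air pool at one duration and below it at the other. The share of all genes with such a change of side was not taken, so the count is not called unusual. Each side is 1 pool against 1 pool, and the difference between the durations was not tested. Tlr5, the flagellin receptor gene, was at 0.27 at 2 weeks and -0.44 at 4 weeks (log2 smoke minus clean air). Tirap, an adaptor gene of TLR2 and TLR4, was at 0.21 and -0.11, and the kinase gene Irak2 at 0.07 and -0.18. The sensor gene Nod2 was at -0.13 and 0.08 and Nlrc4, the partner of the NAIP receptors, at -0.06 and 0.16. None of these 10 differences reached 1.5-fold.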

How the results depend on the processing

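Of the 31 genes, 3 passed limma. After median centring 7 passed, with centring over all features 8, and after cyclic loess 0 (17 with an unadjusted p under 0.05). The count was 5 with the floor at the 60th percentile, 12 with only protein-coding genes and 0 without the duration term (11 unadjusted). Over all genes, 265 of 18084 passed, against 592 after median centring, 585 with centring over all features and 36 after cyclic loess. With the floor at the 60th percentile 379 of 12057 passed, with only protein-coding genes 882 of 12581, and without the duration term 0. Without any 1 pool, either smoke or clean air is left with 1 pool. Nearly all calls over all genes were then lost, those of members and pathway genes included. Tlr7, Cd14 and Ly86 had positive effects in all 15 alternative fits, but only centring and loess could have turned these signs. Other settings keep or shrink the effect by design, and leaving out a pool cannot turn it where the pools do not overlap. After cyclic loess the effects were 0.95, 1.05 and 0.72 (adjusted p = 0.0553, 0.0511 and 0.0859). Ly86 also missed the threshold with no floor (adjusted p = 0.0517) and with loess over all features (adjusted p = 0.0771). Of the pathway genes, 2 passed after cyclic loess (30 unadjusted), 4 with loess over all features, 23 with only protein-coding genes and 0 without the duration term (20 unadjusted), against 11. At least 1.5-fold differences at 2 weeks numbered 8 with centring over all features, 2 with the natural log and, at 2-fold, 1, against 5. At 4 weeks they numbered 3 with the natural log and, at 2-fold, 1, against 7. The main counts stand beside 1.82% and 2.53% of all genes that were as much higher. Such shares were not taken in the other settings, and the natural log shrinks the differences of all genes alike. The count of genes whose pools did not overlap was 21 and ran from 14, with the floor at the 60th percentile and 20 genes tested, to 22. Among the scalings, 12.4% to 17.1% of all genes had both smoke pools above and 14.9% to 19.3% had both below. These shares were not taken at the other floors. Among these settings signs of the smoke effect turned only in uncalled genes, on leaving out a pool, with ranges of -0.33 to 0.16 for Tlr5 (0.02 without 4-week clean air), -0.07 to 0.38 for Tlr6 (-0.04 without 2-week clean air), -0.05 to 0.84 for Myd88, -0.10 to 0.21 for Tirap, -0.19 to 0.08 for Irak2, -0.03 to 0.48 for Ly96, -0.09 to 0.04 for Nod2 (0.01 without 2-week clean air) and -0.03 to 0.12 for Nlrc4. The causes were not tested. The main fit pairs the pools by duration, which is a term of it. Each group holds a single replicate number, so no further pairing was possible.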
